A study of Mus musculus with 6 samples.

Results

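Mature Ccr7 Fscn1 dendritic cells were described in sorted immune cells of mouse tumours. Of 46891 cells kept in 6 single-cell RNA libraries, 330 were members. A member had at least 1 UMI (unique molecular identifier, 1 counted RNA molecule) of Ccr7 and of Fscn1, at least 5 UMIs of the MHC class II genes H2-Aa and H2-Ab1 together, and none of the T cell gene Cd3e or the B cell gene Cd79a. Cells also needed at least 500 UMIs, 200 genes and at most 10% mitochondrial UMIs. So the members were chosen by measured counts of these genes. The tumours grew after injection of a cell line of breast cancer brain metastasis, either in the brain, a group abbreviated BrM, or in the mammary fat pad, abbreviated MFP. All mice were female C57BL/6J, 10 to 12 weeks old, and each site had 3 libraries. Per the labels, digested tumours were sorted for CD45+ DAPI- RedDot1+ cells, that is, live nucleated leukocytes, and the labels name no drug and no altered gene in either group. Whether replicate libraries stem from different mice is not given in the labels, and a p-value here measures the spread of these libraries, which can be technical. All tumours came from a single line, which is what the labels give on the model.

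Conventional dendritic cells take up antigen in tissue and present it to T cells. The cDC1 subset is known for cross-presentation on MHC class I, and the cDC2 subset for presentation to CD4 T cells. On maturation, both subsets raise the chemokine receptor CCR7 and the actin-bundling protein fascin (Fscn1), leave the tissue for lymph nodes along CCL19 and CCL21, and carry costimulatory molecules together with inhibitory ligands such as PD-L1. Such cells are described in tumours as mature dendritic cells enriched in immunoregulatory molecules.

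The members were uneven between libraries. BrM 2 held 137, BrM 3 held 167 and MFP 3 held 23, whereas BrM 1 held 2, MFP 1 held 1 and MFP 2 held 0. The comparisons with other dendritic cells therefore rest on BrM 2, BrM 3 and MFP 3, in that order wherever 3 values are given, which hold 327 of the members. In the same libraries, cells with at least 2 UMIs of Xcr1 and Clec9a formed the cDC1 class (216, 196 and 109 cells). Cells with Flt3, a UMI of Cd209a, Clec10a or Mgl2, no Xcr1 or Clec9a and at most 2 UMIs of the complement genes C1qa, C1qb and C1qc formed the cDC2 class (91, 40 and 60 cells). Both classes also had to meet the class II, Cd3e and Cd79a conditions, hold no UMI of the plasmacytoid gene Siglech and not be members. Members were shallower than cDC1, with a median of 9092, 8143 and 11190 UMIs per cell against 13588, 12246 and 20327 in cDC1 and 9914, 7694.5 and 14608 in cDC2. The libraries held 50692794 to 70944735 UMIs each, and pairs of libraries shared 8 to 31 barcodes, at most 0.403% of the smaller one.

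The markers of mature dendritic cells that the rule did not use were present. The cells were selected on Ccr7 and Fscn1, so those levels are a description with no test: Ccr7 stood at 2243, 2169 and 2939 CPM (counts per 1000000 UMIs, from the UMIs summed over the cells of a class in a library) and Fscn1 at 1050.0, 1110.0 and 1229 CPM. The other 3 markers were not part of the rule, and 308 of the 330 members had a UMI of Ccl22, Il12b or Cd274, with 126 holding all 3 and 22 none. Cd274 was detected in 78.1%, 82.0% and 82.6% of members, but also in 22.01%, 17.6% and 18.9% of NK cells and in 33.3%, 46.4% and 40.4% of cDC1, and 257 members had a UMI of Ccl22 or Il12b. Ccl22 was detected in 55.5%, 58.7% and 65.2% of members and Il12b in 67.2%, 61.7% and 52.2%. In NK cells of the same libraries, which should lack both genes, the shares were 1.36%, 0.651% and 0.296% for Ccl22 and 0.272%, 0.651% and 0 for Il12b, at median depths of 5226, 3466 and 5865.5 UMIs. The 0 was of 338 NK cells, which allows a share of up to 0.888%. With every cell thinned to 3000 UMIs, which left out 1 member of BrM 2 and 3 of BrM 3, Ccl22 was seen in 35.3%, 40.9% and 30.4% of members and Il12b in 54.4%, 51.2% and 39.1%.

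Cells near the limits of the rule differed in level. The 9 members with exactly 1 UMI each of Ccr7 and Fscn1 held no Ccl22 UMI and 132 CPM of Relb. The 285 members with at least 2 UMIs of both stood at 499 CPM of Ccl22 and 578 CPM of Relb. Just outside, 747 cells with Ccr7 but no Fscn1 stood at 80.6 CPM of Ccl22, and 185 cells with Fscn1 but no Ccr7 at 37.0 CPM. The 65 cells that met every other condition but had under 5 class II UMIs held 238 CPM of Ccl22, 1145 CPM of Il12b and 21857 CPM of Ccl5.

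Transcripts of other cell types were present. The summed level of 8 macrophage markers, all detected in every library, was 6245, 3696 and 1132 CPM in members, 6446, 9496 and 15050.1 CPM in cDC1 and 419, 409.8 and 356 CPM in cDC2. More than 2 C1q UMIs were found in 25.5%, 15.0% and 30.4% of members and in 36.6%, 43.9% and 69.7% of cDC1, while the cDC2 class admits none. C1qa itself was detected in 35.0%, 35.9% and 43.5% of members and in 34.0%, 25.6% and 28.1% of NK cells. The 6 microglia markers summed to 860, 237 and 71.9 CPM in members, with 4 of the 6 at 0 in MFP 3. The 8 T cell, 7 B cell and 7 NK cell markers each summed to at most 205 CPM in any of the 3 libraries, and the 5 mast cell or basophil markers were all at 0. The part of macrophage RNA in the differences below was not tested, and the counts of a gene group that moved by over 1.5 times, and the calls that were lost, when cells with more than 2 C1q UMIs were left out of cDC1 or of all classes are given beside the group.

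The members differed widely from both classes. In the fit by edgeR's quasi-likelihood test with the library as a block, 8500 genes were tested and called at a Benjamini-Hochberg adjusted p under 0.05. Members were higher than cDC1 in 1590 genes (18.7% of those tested) and lower in 1683 genes (19.8%). They were higher than cDC2 in 1407 genes (16.6%) and lower in 1342 genes (15.8%). The median log2 fold change over all genes was -0.05 against cDC1 and -0.01 against cDC2, which are the values to set the medians of the gene groups against. The counts of each group below are to be set against these shares of all genes. Each group median kept its value when genes with no UMI in a class were set to their bound. The 16 genes read by a gate were not tested. Both comparisons use the same sums of members, so the values against each class are given side by side and their likeness is not read as a result. Without BrM 3 the genes called in either direction fell from 3273 to 1451 against cDC1 and from 2749 to 1270 against cDC2.

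**Figure D1:**
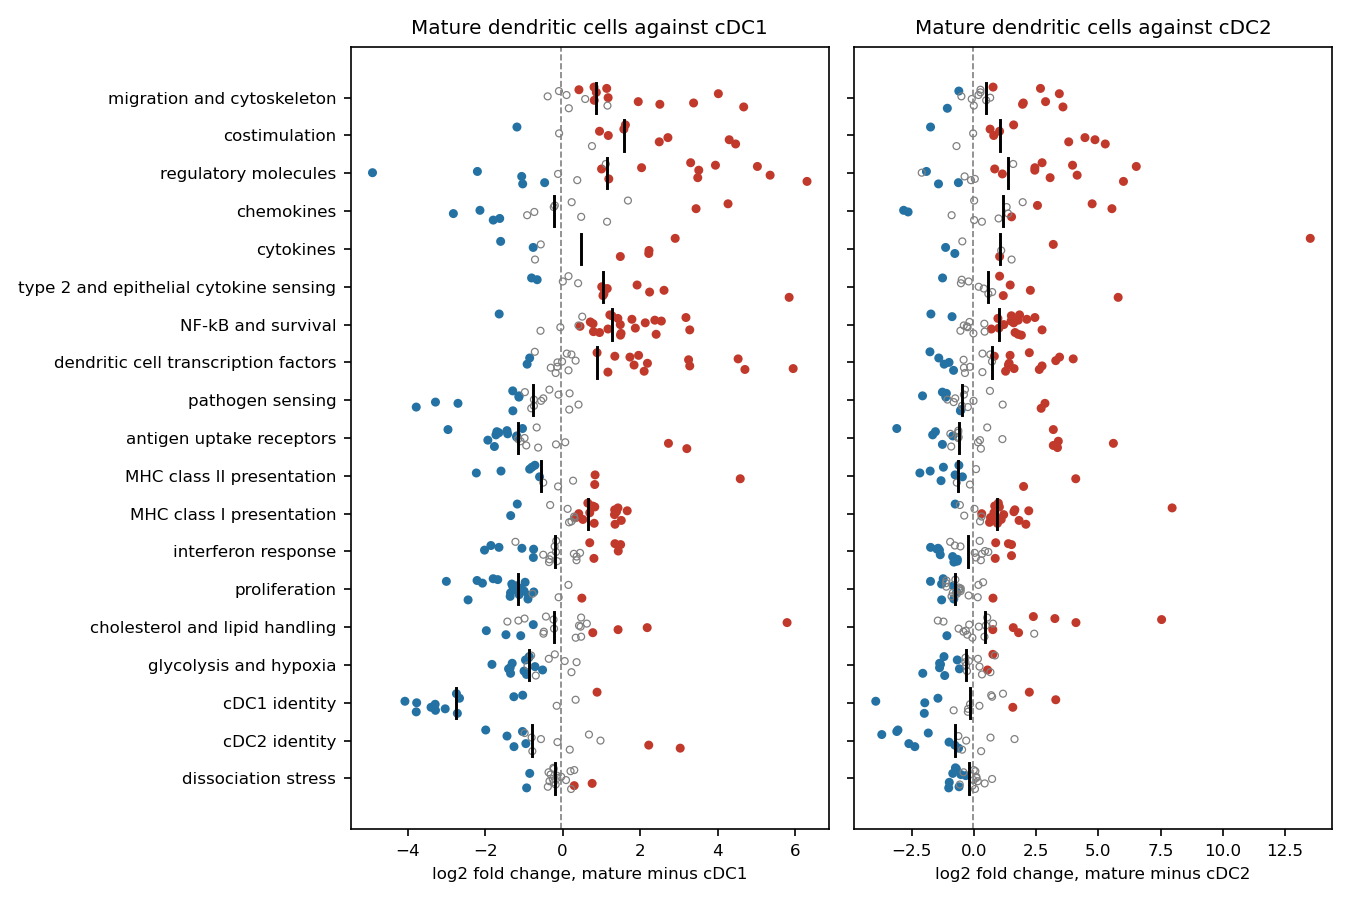
Log2 fold change of each measured gene of 19 gene groups in mature dendritic cells against cDC1 (left) and cDC2 (right); filled points passed an edgeR adjusted p under 0.05 (red higher, blue lower in mature cells), open points did not, black bars are group medians and the dashed line is the median of all 8500 genes. Of 25 NF-kB and survival genes, 20 were higher than in cDC1 and 15 higher than in cDC2, whereas 21 of 25 proliferation genes were lower than in cDC1. A gene with no UMI in cDC2, such as Il12b at the far right, has a fitted value that depends on the prior count.

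Genes of migration and of the cytoskeleton were raised. Of 22 listed genes 17 were tested, 11 were higher than in cDC1 and none lower (median log2 fold change 0.87), and 7 were higher and 2 lower than in cDC2 (median 0.50). Marcksl1, an actin-binding protein of moving cells, stood at 848, 923 and 1006 CPM in members, 116, 119 and 55.9 CPM in cDC1 and 225, 307 and 225 CPM in cDC2. Its log2 fold change was 3.38 ± 0.23 (SE) against cDC1 and 1.99 ± 0.22 against cDC2, with edgeR adjusted p = 1.22e-06 and 5.48e-05. The related Marcks (1049, 1034 and 1186 CPM) gave log2 fold changes of 1.95 and 2.88, and the myosin Myo1g, which links membrane to actin in leukocytes, gave 2.51 and 1.96. No library of either class reached the lowest library of members for these 3 genes.

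Tbc1d4, a Rab GTPase-activating protein of vesicle traffic, stood at 841, 815 and 1437 CPM against 55.6, 42.8 and 26.8 CPM in cDC1 and 93.7, 82.5 and 95.3 CPM in cDC2 (log2 fold change 4.67 ± 0.29 and 3.58 ± 0.29, edgeR adjusted p = 6.52e-07 and 4.58e-06). Cdc42ep3, an effector of the small GTPase Cdc42, gave 4.02 and 3.43. The actin gene Actg1 rose by less, with 0.81 and 0.77. Higher than cDC1 but not called against cDC2 were the lysolipid receptor Gpr132 (1.17 and 0.66) and Cd47, a signal against phagocytosis (0.87 and 0.27). Against cDC2, Gpr132 passed under 7 of 15 alternatives and Cd47 under 2. Without BrM 3, 1 gene of the list was lower than in cDC2, as with all classes C1q-limited, and with C1q-limited cDC1, 1 was lower than in cDC1.

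**Figure D2:**
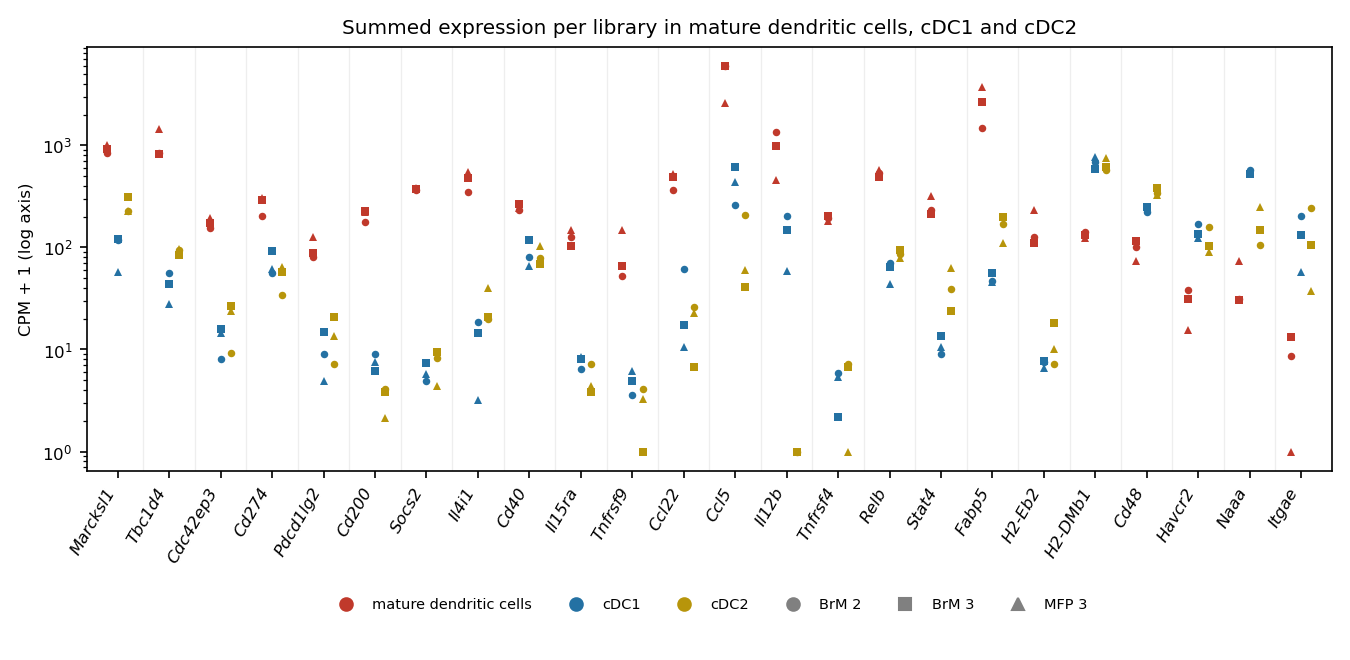
CPM + 1 on a log axis of 24 genes in mature dendritic cells (red), cDC1 (blue) and cDC2 (ochre), 1 point per library (circle BrM 2, square BrM 3, triangle MFP 3). The red points of Socs2, Cd200, Il15ra and Tnfrsf4 sit above 100 CPM in all 3 libraries and those of the other classes below 10, while for H2-DMb1, Cd48, Havcr2, Naaa and Itgae the red points are the lowest.

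Inhibitory genes were called in both directions, more of them higher than lower. Of the 26 regulatory genes 18 were tested, of which 10 were higher and 5 lower than in cDC1 (median log2 fold change 1.15), and 10 higher and 3 lower than in cDC2 (median 1.36). Without BrM 3, 1 was lower than in cDC1, and with cDC1 or all classes C1q-limited 3 were. Cd274, which encodes the PD-1 ligand PD-L1, stood at 203, 288 and 305 CPM in members, 54.7, 90.3 and 60.6 CPM in cDC1 and 33.3, 56.9 and 63.5 CPM in cDC2. Its log2 fold changes were 2.04 ± 0.17 and 2.45 ± 0.20 (edgeR adjusted p = 4.28e-06 and 4.31e-06). The second PD-1 ligand, Pdcd1lg2, stood at 78.9, 86.6 and 126 CPM against 8.09, 13.9 and 3.90 CPM in cDC1 and 6.25, 19.9 and 12.5 CPM in cDC2. Every library of members was above every library of the other classes for both ligands, and the log2 fold change of Pdcd1lg2, 3.49 and 3.06, was the larger.

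Cd200, the ligand of an inhibitory receptor on myeloid cells, was measured at 176, 228 and 219 CPM in members, with 8.09, 5.15 and 6.49 CPM in cDC1 and 3.12, 2.85 and 1.13 CPM in cDC2. Socs2, an inhibitor of cytokine receptor signalling, had 361, 374 and 384 CPM in members and at most 8.54 CPM in any library of the other classes, the highest fold change among the regulatory genes against cDC1 (log2 6.30 ± 0.21, edgeR adjusted p = 1.54e-08). Il4i1, a secreted enzyme that breaks down amino acids and restrains T cells, gave 5.35 and 4.15. The death receptor Fas (3.51 and 2.45) and Cd1d1, which presents lipids to NKT cells (3.94 and 3.96), also rose against both classes.

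Some inhibitory genes fell or were barely found. Havcr2, which encodes TIM-3, stood at 37.4, 30.0 and 14.4 CPM in members, 168, 134 and 123 CPM in cDC1 and 157, 102 and 88.5 CPM in cDC2 (log2 -2.20 and -1.90, edgeR adjusted p = 4.25e-06 and 2.70e-05). Tgfb1, which encodes the cytokine TGF-beta 1, was lower than in both classes (-1.03 and -1.42), and without BrM 3 the call against cDC1 was lost (log2 -1.09, adjusted p = 0.0759, edgeR). Il10 had 0.692 CPM in BrM 2 and 0 in the other libraries of members. Ido1, the tryptophan-degrading enzyme often named with these cells, was too low to test, at 0, 2.05 and 7.19 CPM.

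Of 16 costimulatory genes 11 were tested, and 8 were higher and 1 lower than in each of the classes (median log2 fold change 1.58 against cDC1 and 1.03 against cDC2). Cd40, the receptor of T cell help, had 231, 267 and 244 CPM in members, 78.9, 117 and 64.1 CPM in cDC1 and 77.1, 68.3 and 103 CPM in cDC2 (log2 1.62 ± 0.20 and 1.60 ± 0.22, edgeR adjusted p = 9.29e-05 and 2.61e-04). The CD28 ligand Cd80 gave 1.58 and 0.65; the call against cDC2 was lost without BrM 2 (log2 0.59, adjusted p = 0.13, edgeR) and without BrM 3 (log2 0.74, adjusted p = 0.0947), when 5 genes of the group were higher than in cDC2, and with cells thinned to 3000 UMIs (log2 0.65, adjusted p = 0.113). The other CD28 ligand, Cd86, did not pass against either class (-0.09 and -0.03), and its sign turned under 4 alternatives against cDC1 and 5 against cDC2.

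The largest changes of this group were in a cytokine pair and 2 receptors. Il15ra, which presents IL-15 to NK and CD8 T cells, had 126, 102 and 147 CPM against 5.50, 7.13 and 7.36 CPM in cDC1 and 6.25, 2.85 and 3.40 CPM in cDC2. Il15 itself gave log2 fold changes of 2.72 and 4.46. Tnfrsf9 (4-1BB; 51.2, 64.8 and 147 CPM) and the interleukin 2 receptor chain Il2ra (49.8, 72.3 and 144 CPM) had log2 fold changes of 4.46 and 2.49 against cDC1 and of 5.28 and 3.81 against cDC2. Without BrM 3, Il2ra was no longer called against cDC1 (log2 2.09, adjusted p = 0.0956, edgeR), as by DESeq2 (log2 2.57, adjusted p = 0.106). The 1 gene lower in both comparisons was the adhesion ligand Cd48 (-1.18 and -1.74). Cd70, the ligand of CD27, was too low for the filter, at 20.1, 27.3 and 0 CPM; cDC2 held no UMI, so the 3 libraries together were at least 15.8-fold higher, from a floor of 3 counts over the cDC2 class.

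Chemokine genes were mixed. Of 15 genes 14 were tested, with 2 (14.3%) higher and 4 (28.6%) lower than in cDC1 (median log2 fold change -0.22). Of all genes 18.7% were higher and 19.8% lower there. Against cDC2, 4 (28.6%) were higher and 2 (14.3%) lower (median 1.16), beside 16.6% and 15.8% of all genes. Ccl22, which draws CCR4-bearing cells such as regulatory T cells, had 366, 492 and 517 CPM in members, 59.9, 16.2 and 9.52 CPM in cDC1 and 24.99, 5.69 and 21.6 CPM in cDC2 (log2 4.27 ± 0.47 and 4.75 ± 0.56, edgeR adjusted p = 3.40e-05 and 7.18e-05). Ccl5, a chemokine that draws T cells, had 5948, 5933 and 2569 CPM in members against 257, 611 and 435 CPM in cDC1 and 205, 39.8 and 59.0 CPM in cDC2. Its log2 fold changes were 3.44 and 5.55, and MFP 3 was the lowest library of members, still above every library of the other classes. Ccl17, the other CCR4 ligand, varied between libraries, 68.5, 212 and 32.3 CPM in members and 208, 99.6 and 12.5 CPM in cDC2, and passed in neither comparison, though it passed against cDC1 under 8 of 15 alternatives. Cxcl16, the ligand of CXCR6, was higher than cDC2 (1.52, edgeR adjusted p = 1.25e-04) and not called against cDC1 (0.48), where it passed under 8 of 15 alternatives. Ccl19, a ligand of CCR7 itself, was too low to test, at 0.692, 2.73 and 0 CPM. With cDC1 limited to cells of at most 2 C1q UMIs, 7 chemokine genes were higher and 2 lower than in cDC1, and with all classes so limited 4 and 3, when 4 were lower than in cDC2. Without BrM 3, 2 were lower than in cDC1.

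Among 17 cytokine genes 8 were tested, of which 4 were higher and 2 lower than in cDC1, and 3 higher and 2 lower than in cDC2. Il12b, which encodes the p40 subunit shared by IL-12 and IL-23, had 1361, 974 and 459.9 CPM in members and 203, 146 and 58.0 CPM in cDC1 (log2 2.90 ± 0.14, edgeR adjusted p = 6.45e-07). No Il12b UMI was found in cDC2, so the level over the 3 libraries was at least 808-fold higher in members, from a floor of 3 counts over the cDC2 class. The partner subunits were not found at a level to test: Il12a had no UMI in any of the 3 classes and Il23a stood at 2.77, 0.682 and 0 CPM in members. Il1b, a cytokine of inflammasome activation, was lower than in cDC1 (-0.76) and in cDC2 (-1.13). The first of these turned to 0.62 with C1q-limited cDC1 and lost its call without BrM 3 (log2 -0.80, adjusted p = 0.0804, edgeR). Against cDC1 the list's counts became 7 higher and 1 lower with C1q-limited cDC1, 1 was lower with all classes so limited, and 4 were lower without BrM 2 and none without BrM 3, and against cDC2 1 was higher and 1 lower without BrM 2, as without BrM 3.

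Receptors for T cell and epithelial cytokines followed. Of 13 tested genes of a list on type 2 and epithelial cytokine sensing, 8 were higher and 2 lower than in cDC1 (median log2 fold change 1.04), and 5 higher and 1 lower than in cDC2 (median 0.58). Tnfrsf4, which encodes OX40, had 193, 201 and 179.7 CPM in members, 4.85, 1.19 and 4.33 CPM in cDC1 and 6.25, 5.69 and 0 CPM in cDC2 (log2 5.84 ± 0.36 and 5.80 ± 0.46, edgeR adjusted p = 6.45e-07 and 4.25e-06). Il7r, a chain of the IL-7 and TSLP receptors, gave 2.62 and 2.27, and Il21r 1.92 and 1.46. Crlf2, the other TSLP receptor chain, moved the opposite way (-0.80 and -1.26), with the call against cDC1 lost without BrM 3 (log2 -0.79, adjusted p = 0.0791, edgeR). Without BrM 3 none of the list was lower than in cDC1, and without BrM 2 or BrM 3, 3 were higher than in cDC2. With cDC1 or all classes C1q-limited 1 was lower than in cDC1, and with all limited 2 were lower than in cDC2. The IL-4 receptor chain Il4ra passed against cDC1 (1.15) and not against cDC2 (0.40).

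Against cDC1, NF-kB genes had the highest share of raised genes among the 19 lists. All 25 listed genes were tested, of which 20 were higher and 1 lower than in cDC1 (median log2 fold change 1.27), and 15 higher and 2 lower than in cDC2 (median 1.01), or 5 lower than in cDC2 with all classes C1q-limited. Relb, the subunit of the non-canonical pathway, had 537, 492 and 579 CPM in members, 69.6, 63.4 and 43.3 CPM in cDC1 and 85.4, 93.9 and 78.3 CPM in cDC2 (log2 3.28 ± 0.17 and 2.74 ± 0.18, edgeR adjusted p = 3.25e-07 and 1.80e-06). Its partner Nfkb2 had 170.3, 159.6 and 269 CPM against 44.6, 43.2 and 52.8 CPM in cDC1 and 59.4, 71.1 and 77.2 CPM in cDC2. Rel, of the canonical pathway, had 1014, 1050.0 and 1164 CPM against 318, 326 and 292 CPM in cDC1 and 459, 717 and 558 CPM in cDC2. For all 3 genes the lowest library of members was above the highest of either class.

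The kinase of the non-canonical pathway, Map3k14 (NIK), gave log2 fold changes of 2.55 and 1.50. The ubiquitin ligase Birc2 (cIAP1) gave 3.18 and 2.45, the adaptor Traf1 2.41 and 1.78, and Traf3, which holds NIK low at rest, 1.49 and 1.91. The caspase-8 regulator Cflar (1.79 and 2.13) and the stress-induced Gadd45b (2.38 and 1.78) were also higher, as were the anti-apoptotic Bcl2a1b and Bcl2a1d, near-identical copies that share reads. Canonical Nfkb1 rose against cDC1 (0.71) and did not pass against cDC2 (-0.17); without BrM 3 the call was lost (log2 0.68, adjusted p = 0.0923, edgeR). The survival gene Bcl2 was the 1 gene lower in both comparisons (-1.64 and -1.72, edgeR adjusted p = 0.00857 and 0.0164), at 1.38, 8.86 and 10.8 CPM in members, and without BrM 2 it was called in neither (log2 -0.95, adjusted p = 0.0977 and log2 -1.08, adjusted p = 0.136).

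The 250 bases upstream of the RefSeq start (GRCm38.p6) are shown for 3 of the raised genes, because each holds the NF-kB consensus named after the factor, a motif of 10 bases that was searched on both strands with overlapping matches counted. Capitals mark the matches, and each sequence reads 5′ to 3′ on the gene's strand. These 3 genes were picked after the matches were seen.
Rel: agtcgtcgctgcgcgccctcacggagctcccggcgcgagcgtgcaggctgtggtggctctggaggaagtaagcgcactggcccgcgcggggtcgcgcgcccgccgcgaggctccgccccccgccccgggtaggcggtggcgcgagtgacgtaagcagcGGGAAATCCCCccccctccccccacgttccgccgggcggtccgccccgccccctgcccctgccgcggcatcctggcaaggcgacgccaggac
Nfkb2: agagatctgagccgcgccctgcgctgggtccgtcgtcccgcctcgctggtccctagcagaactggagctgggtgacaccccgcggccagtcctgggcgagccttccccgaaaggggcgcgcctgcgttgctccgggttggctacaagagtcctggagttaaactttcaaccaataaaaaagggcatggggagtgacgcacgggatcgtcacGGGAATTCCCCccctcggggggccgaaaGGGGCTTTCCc
Pdcd1lg2: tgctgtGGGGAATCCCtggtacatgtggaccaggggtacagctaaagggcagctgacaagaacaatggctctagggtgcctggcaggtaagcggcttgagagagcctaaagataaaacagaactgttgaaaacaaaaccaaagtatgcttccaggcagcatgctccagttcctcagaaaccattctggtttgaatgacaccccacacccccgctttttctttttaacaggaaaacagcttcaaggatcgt
The Rel stretch lies at chr11:23770970-23771219 on the minus strand and holds 2 overlapping matches. The Nfkb2 stretch, at chr19:46304487-46304736 on the plus strand, is taken at the first of its annotated starts that has a match and holds 3. The Pdcd1lg2 stretch, at chr19:29410669-29410918 on the plus strand, holds 1. In RefSeq 3.90% of 32851 promoters hold a match, and 4.46% of 27025 genes hold one at any start. By gene, a match was found in 9 of 22 NF-kB and survival genes with a promoter in the table, in 9 of 20 class I genes, in 4 of 11 chemokine genes, in 2 of 8 costimulatory genes and in 2 of 18 regulatory genes. A match describes letters in this window and no more, and its absence, as at Relb and Cd274, says nothing of the factor.

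Transcription factors of dendritic cells were more often raised than lowered. Of 25 factors 13 were higher and 2 lower than in cDC1 (median log2 fold change 0.89), and 12 higher and 5 lower than in cDC2 (median 0.73). Irf8, which cDC1 need for their identity, had 864, 884 and 963 CPM in members, 901, 786 and 614 CPM in cDC1 and 83.3, 134 and 88.5 CPM in cDC2. It passed against cDC2 (log2 0.33 ± 0.16 against cDC1 and 3.29 ± 0.19 against cDC2, edgeR adjusted p = 0.13 and 6.14e-07), and the sign against cDC1 turned to -0.13 with C1q-limited cDC1. Against cDC1 Irf8 was called higher without BrM 2 (log2 0.54, adjusted p = 0.0356, edgeR). The same held with at least 2 UMIs each of Ccr7 and Fscn1 (log2 0.57, adjusted p = 0.0116, edgeR). Batf3, another factor of cDC1, was higher than in both classes (0.89 and 2.23), though with C1q-limited cDC1 it gave 0.40 and was not called (edgeR adjusted p = 0.0611), and so was Id2 (1.74 and 3.44). Irf4, which cDC2 and migrating dendritic cells use, had 15.9, 23.9 and 18.0 CPM in members, 0.647, 1.98 and 4.76 CPM in cDC1 and 20.8, 37.0 and 34.0 CPM in cDC2, higher than cDC1 (3.25) and not called against cDC2 (-0.41).

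Stat4, which carries the IL-12 signal, had 229, 211 and 316 CPM against 8.09, 12.7 and 9.52 CPM in cDC1 and 38.5, 22.8 and 62.4 CPM in cDC2 (log2 4.70 ± 0.24 and 2.63 ± 0.24, edgeR adjusted p = 2.62e-07 and 1.06e-05). The repressor Etv3 (1.96 and 1.46), the orphan receptor Nr4a3 (1.84 and 1.39) and the conventional dendritic cell factor Zbtb46 (2.10 and 1.28) rose in both comparisons, with Zbtb46 not called against cDC2 without BrM 2 (log2 1.27, adjusted p = 0.0673, edgeR) or thinned to 3000 UMIs (log2 1.00, adjusted p = 0.0682). Ikzf1, the lymphoid and myeloid factor Ikaros, was lower in both (-0.85 and -1.41), and against cDC1 its call was lost without BrM 3 (log2 -0.69, adjusted p = 0.198), when none of the 25 was lower than in cDC1, and without members holding UMIs of other cell types (log2 -0.59, adjusted p = 0.124).

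Subset genes were largely low. Of the 330 members, 66 had a UMI of Xcr1 or Clec9a, 14 a UMI of Cd209a, Clec10a or Mgl2, and 1 had both. Xcr1 was detected in 12.4%, 7.19% and 8.70% of members and in 0.543%, 0.868% and 0.296% of NK cells. Of 15 tested cDC1 identity genes, 12 were lower and 1 higher in members than in cDC1 (median log2 fold change -2.74), with none higher when cDC1 were C1q-limited. Naaa, a lysosomal amidase, had 30.5, 29.3 and 71.9 CPM in members, 571, 524 and 530.4 CPM in cDC1 and 104, 148 and 247 CPM in cDC2, and Wdfy4, needed for cross-presentation, gave -2.72 and -1.99. Of 15 tested cDC2 identity genes, 2 were higher and 5 lower than in cDC1, which became 7 higher and 3 lower with C1q-limited cDC1. None of them was higher (1 in the fit with C1q-limited cDC1) and 9 were lower than in cDC2 (median -0.76), among them the chemokine receptor Ccr2 (-3.05) and the inhibitory receptor Cd300a (-3.09). S100a4 was an exception against cDC1, with 1042, 1832 and 3083 CPM in members, 182, 244 and 311 CPM in cDC1 and 2742, 3091 and 3039.6 CPM in cDC2 (log2 3.03 and -0.61). The call of S100a4 against cDC2 was lost without BrM 2 (log2 -0.27, adjusted p = 0.276, edgeR) and without BrM 3 (log2 -0.59, adjusted p = 0.244), and in all under 7 of 15 alternatives, among them no replicate block (log2 -0.50, adjusted p = 0.208) and DESeq2 (log2 -0.60, adjusted p = 0.0774).

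MHC class I and class II genes moved in different directions. Of 23 class I presentation genes, 15 were higher and 2 lower than in cDC1 (median log2 fold change 0.65), and 17 higher and 1 lower than in cDC2 (median 0.94), or 2 lower than in cDC2 with all classes C1q-limited. H2-K1 had 4699.7, 4945 and 3453 CPM in members, 2548, 2832 and 2433 CPM in cDC1 and 2350.3, 2402 and 2056 CPM in cDC2 (log2 0.83 ± 0.09 and 1.03 ± 0.09, edgeR adjusted p = 3.15e-05 and 8.96e-06). B2m, the light chain of every class I molecule, gave 0.65 and 0.98, and the proteasome activator Psme2 1.51 and 1.82. H2-Q4, H2-Q6 and H2-Q7 were also higher, but they resemble each other and reads between them are uncertain. The chaperone Calr was the gene lower in both comparisons (-1.17 and -0.75). Without BrM 3, the calls of B2m against cDC1 (log2 0.62, adjusted p = 0.0527, edgeR) and Calr against cDC2 (log2 -0.76, adjusted p = 0.0877) were lost.

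Of 12 tested class II presentation genes, 3 were higher and 6 lower than in cDC1 (median log2 fold change -0.55), and 2 higher and 7 lower than in cDC2 (median -0.64). The peptide exchange factors had the lowest fold changes of the list. H2-DMb1 had 139.8, 130.2 and 122 CPM in members, 681, 582 and 759 CPM in cDC1 and 575, 618 and 743 CPM in cDC2 (log2 -2.23 ± 0.14 and -2.17 ± 0.14, edgeR adjusted p = 6.45e-07 and 1.24e-06), and H2-DMa gave -1.59 and -1.75. The invariant chain Cd74 (-0.72 and -0.60), H2-Eb1 (-0.60 and -0.46) and the class II transactivator Ciita (-0.79 and -1.22) were lower in both, Ciita without a call against cDC1 when BrM 3 was left out (log2 -0.73, adjusted p = 0.0888, edgeR). H2-Eb2 went the other way, 125, 109.8 and 230.0 CPM against 6.47, 6.73 and 5.63 CPM in cDC1 and 6.25, 17.1 and 9.08 CPM in cDC2 (log2 4.58 and 4.09). H2-Aa and H2-Ab1 were read by every gate and have no test; in members they stood at 6748, 6476 and 7136 CPM and 4325, 4614 and 5102 CPM.

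Sensing and uptake genes depended on how cDC1 were drawn. Of 18 tested pathogen sensing genes none was higher and 7 were lower than in cDC1, and 2 were higher and 6 lower than in cDC2. Myd88, the adaptor of most Toll-like receptors, had 16.6, 28.6 and 14.4 CPM in members, 44.3, 52.7 and 64.9 CPM in cDC1 and 75.0, 85.4 and 149 CPM in cDC2 (log2 -1.12 and -2.06, edgeR adjusted p = 0.00367 and 1.15e-04). Without BrM 2, Myd88 was not called against cDC1 (log2 -0.97, adjusted p = 0.0502), and without BrM 3, 1 sensing gene was lower than in cDC2. With C1q-limited cDC1, 3 sensing genes were higher and 4 lower than in cDC1 and 1 higher than in cDC2, and with all classes limited none was higher than in cDC2. Of 21 tested uptake receptors 2 were higher and 11 lower than in cDC1, which became 9 higher and 3 lower with C1q-limited cDC1, and 2 higher and 7 lower with all classes so limited. Against cDC2, 5 were higher and 5 lower (23.8% each, beside 16.6% and 15.8% of all genes). With C1q-limited cDC1 in the fit these counts were 3 and 3, and with all classes limited 2 and 11. Without BrM 3, 6 uptake receptors were lower than in cDC1, and 1 was higher and 3 lower than in cDC2. Ly75, which encodes the uptake receptor DEC-205 of dendritic cells, was higher in both comparisons, with 188, 179 and 176 CPM in members, 42.1, 32.5 and 12.6 CPM in cDC1 and 2.08, 14.2 and 1.13 CPM in cDC2 (log2 2.73 ± 0.30 and 5.60 ± 0.51, edgeR adjusted p = 3.88e-05 and 1.19e-05).

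Among cell cycle and glycolysis genes more were lower than higher, above all against cDC1. Of 25 proliferation genes 21 were lower and 1 higher than in cDC1 (median log2 fold change -1.16), and 7 lower and 1 higher than in cDC2 (median -0.74). Without BrM 3, 8 were lower than in cDC1 and 2 lower than in cDC2. None was higher than C1q-limited cDC1, and 2 were higher than cDC2 with all classes limited. Ube2c, which acts in mitosis, had 26.3, 12.95 and 18.0 CPM in members, 117, 104 and 126 CPM in cDC1 and 43.7, 54.1 and 62.4 CPM in cDC2 (log2 -2.44 and -1.29, edgeR adjusted p = 1.03e-05 and 0.00325). Against cDC2 its call was lost without BrM 3 (log2 -1.01, adjusted p = 0.0755) and with cells thinned to 3000 UMIs (log2 -0.66, adjusted p = 0.401). The gene that was higher in both comparisons was the tubulin Tubb5 (0.50 and 0.77), which was called in neither without BrM 2 (log2 0.44, adjusted p = 0.101 and log2 0.51, adjusted p = 0.0856) or without BrM 3 (log2 0.44, adjusted p = 0.294 and log2 0.72, adjusted p = 0.121). Against cDC1 its call was also lost with C1q-limited cDC1 (log2 0.40, adjusted p = 0.078), with no replicate block (log2 0.48, adjusted p = 0.066) and by DESeq2 (log2 0.53, adjusted p = 0.0575). In 76 of the 330 members a UMI of Mki67 or Top2a was found. Mki67 alone was detected in 10.9%, 17.4% and 21.7% of members, and in 4.41%, 7.32% and 4.35% when thinned to 3000 UMIs. At that depth it was detected in 11.2%, 17.9% and 15.7% of cDC1 and in 7.69%, 12.5% and 15.0% of cDC2. The NK cells had 7.59%, 6.14% and 3.58%. Of 20 tested glycolysis and hypoxia genes 12 were lower and none higher than in cDC1 (median -0.87), and 8 lower and 2 higher than in cDC2 (median -0.32). Lactate dehydrogenase Ldha gave -1.82 and -1.34, phosphofructokinase Pfkp -1.35 and -1.38, and the glucose transporter Slc2a1 -1.34 and -2.05, the first of which was -0.58 and not called with C1q-limited cDC1 (edgeR adjusted p = 0.0926). With C1q-limited cDC1, 2 of these genes were higher than in cDC1. Without BrM 3, 6 were lower than in cDC1, and without BrM 2 or BrM 3, 4 were lower than in cDC2.

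Beyond the lists, the 12 genes furthest above both classes included Socs2 and Tnfrsf4. Nudt17, a Nudix hydrolase, had 226, 237 and 234 CPM in members and at most 6.15 CPM in cDC1, and no UMI in cDC2, so it was at least 169-fold higher than there. Cacnb3, a calcium channel subunit, had 312, 292 and 464 CPM and was at least 231-fold higher than in cDC2. The transporter gene Slco5a1 had 71.3, 51.1 and 53.9 CPM, with 1 UMI in cDC1 (ratio 480, exact 95% counting interval 85.1 to 19040) and none in cDC2 (at least 44.2-fold higher). The adenylyl cyclase Adcy6, at 48.5, 48.4 and 169 CPM, was at least 43.1-fold higher than in cDC2. Tcf7, a factor better known in T cells, had 68.5, 70.2 and 68.3 CPM in members beside T cell marker sums of 72.7, 58.0 and 21.6 CPM, and its log2 fold change against cDC1 was 6.98 ± 0.34 (edgeR adjusted p = 2.36e-07). The rest were Tmem150c, Ankrd33b, the fatty acid transporter family gene Slc27a3 and the predicted genes Gm13546 and Gm47662, with log2 fold changes of 5.86 to 8.08 against cDC1. All bounds against cDC2 use a floor of 3 counts over that class.

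The 12 genes furthest below both classes were led by Itgae, the CD103 integrin chain, with 7.61, 12.3 and 0 CPM in members, 202, 131 and 56.7 CPM in cDC1 and 239.5, 105 and 36.3 CPM in cDC2 (log2 -4.07 ± 0.35 and -3.94 ± 0.37, edgeR adjusted p = 5.48e-06 and 1.33e-05). Anxa1, an annexin that limits inflammation, gave -3.01 and -3.64, and Gsn, which severs actin filaments, -2.26 and -2.39. Qpct, Unc119, Gpr171, Arhgap15, Plet1, Tm6sf1, Ptpre, Dctpp1 and Scimp made up the rest, with log2 fold changes between -3.02 and -2.26 against cDC1 and between -4.77 and -2.26 against cDC2. Plet1 was uneven in cDC2, at 516, 359 and 39.7 CPM, and without BrM 3 it was not called against cDC1 (log2 -2.98, adjusted p = 0.0971, edgeR), nor with no replicate block (log2 -2.13, adjusted p = 0.055).

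Members differed among themselves along Il12b. A UMI of Il12b was found in 92, 103 and 12 members and in none of the other 45, 64 and 11, with median depths of 9230.5, 8995 and 11717 UMIs with it and 8640, 6278.5 and 10606 without. The split was made on a measured gene and cells of a library are not replicates, so the values are a description with no test. A gene is named where the ratio was at least 1.5 in the same direction in all 3 libraries and the mean level of 1 side was at least 50 CPM. Of 2965 genes at that level, 4.15% were higher and 3.27% lower with Il12b by this rule. Irf8 stood at 1139.8, 1071 and 1240.1 CPM in cells with Il12b and 326, 510.2 and 678 CPM in those without. Ly75 (254, 223 and 262 CPM against 59.2, 89.8 and 87.5), Cd24a (103, 101 and 170.1 against 36.7, 67.3 and 29.2) and the chemokine Ccl5 (7455, 6884 and 3784 against 3013, 4037 and 1319) had the same direction, as did Cd80, Il15, Cd200, Adam8, Traf3 and Npc2. Irf8 and Cd24a were the 2 higher ones among 7 cDC1 identity genes at the level rule, and none of the 7 was lower.

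Cells without Il12b were the higher ones for 4 of 9 cDC2 identity genes at the level rule: S100a4 (1858, 2851 and 4454 CPM without against 622, 1321 and 1750.4 with), Sirpa (126, 81.6 and 87.5 against 38.8, 46.1 and 35.4), Ms4a6c (212, 255 and 153 against 49.2, 109 and 56.7) and Ltb (91.8, 106 and 72.9 against 30.4, 33.8 and 7.09). Of 14 class II genes, 4 were higher without Il12b, among them H2-Oa (175, 149 and 131 CPM without and 63.9, 60.4 and 70.9 with) and H2-DMa (296, 257 and 386 against 110.0, 169 and 85.0). The lipid chaperone Fabp5 (2264, 4259 and 5052 against 1065, 1875 and 2367) and the inflammatory Il1b (1916, 2063 and 1786 against 658, 765 and 865) shared that direction. Markers of other cell types moved with the split. Of 8 macrophage markers 1 met the rule, Fcgr1, higher without Il12b (151, 49.0 and 21.9 CPM against 16.8, 30.7 and 14.2, in MFP 3 from 3 and 2 UMIs). C1qb had 2289, 1204 and 51.0 CPM without and 531, 337 and 198 CPM with, so that MFP 3 had the opposite order to the BrM libraries. Both monocyte markers at the level rule were higher without Il12b, Plac8 (399.8, 718 and 248 CPM against 245, 431 and 156) and Ms4a4c (194, 288 and 241 against 60.8, 140.3 and 120.5), as was the plasmacytoid marker Tcf4 (124, 112 and 160.4 against 57.6, 62.5 and 28.3). The microglia markers Sparc and Fcrls were higher without Il12b in both BrM libraries and at 0 on both sides in MFP 3. The part of these cell types in the split was not tested. Of 24 NF-kB and survival genes at the level rule 1 was higher and 1 lower with Il12b, and of 18 migration genes 1 was higher, near the shares over all genes. Relb had 576, 513 and 652 CPM with and 461, 451 and 503 CPM without, and Cd274 220.0, 300.0 and 376 CPM against 169, 265 and 233.

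**Figure D3:**
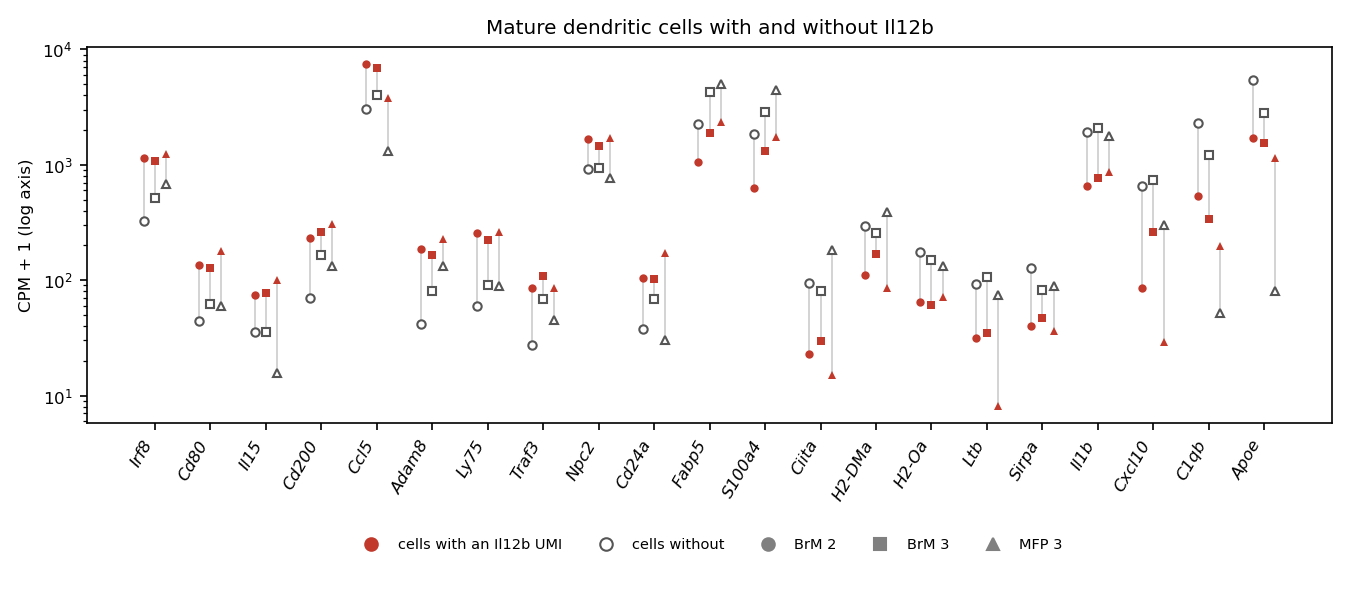
CPM + 1 on a log axis in mature dendritic cells with (red) and without (open) a UMI of Il12b, for 3 libraries (circle BrM 2, square BrM 3, triangle MFP 3); lines join the values of a library. Irf8 to Cd24a are higher with Il12b and Fabp5 to Cxcl10 lower in all 3 libraries, while C1qb and Apoe change order between the BrM libraries and MFP 3.

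The share of members among all kept cells was 0.0252% in BrM 1, 1.78% in BrM 2 and 2.04% in BrM 3. It was 0.0125% in MFP 1, 0 in MFP 2 and 0.347% in MFP 3. Exact 95% binomial intervals, which cover counting error only, ran from 1.50% to 2.10% for BrM 2, from 1.75% to 2.37% for BrM 3 and from 0.220% to 0.521% for MFP 3. The 0 of MFP 2 was of 8486 cells, for which the interval ran up to 0.0435%. The mean was 1.28% ± 1.10 (SD, n = 3) in BrM and 0.120% ± 0.197 (SD, n = 3) in MFP. The groups overlapped, since BrM 1 lay below MFP 3, and the exact two-sided permutation test gave p = 0.2, where 0.1 is the smallest it allows. The difference between sites was 1.16 percentage points, and without BrM 1 it was 1.79 (exact permutation p = 0.1, the smallest possible). Without BrM 2 it was 0.913 and without BrM 3 0.784 (exact permutation p = 0.2 each). Leaving out an MFP library gave 1.10 to 1.28. The difference was 1.09 without the highest doublet scores and 0.843 with at least 20 class II UMIs (exact permutation p = 0.4 each).

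Among members, cDC1 and cDC2 together, members made up 3.85%, 30.9% and 41.4% in BrM and 3.45% and 12.0% in MFP 1 and MFP 3, with MFP 2 left out for holding 9 such cells. The difference of 17.7 percentage points gave an exact two-sided permutation p = 0.3, where 0.1 is the smallest it allows. Without BrM 1 it was 28.4, with both BrM libraries above both MFP libraries. The exact permutation p = 0.333 is then the smallest possible for 2 libraries of each site. The difference was 14.9 without BrM 2 and 9.64 without BrM 3 (exact permutation p = 0.667 each). The sort on CD45 and the digestion set which cells were counted, and fewer cells in a tumour cannot be told apart from fewer cells recovered. The libraries also differed in NK cells, along lines that crossed site. BrM 1, MFP 1 and MFP 2 held 1647, 2669 and 1970 NK cells, and BrM 2, BrM 3 and MFP 3 held 368, 461 and 338. Apoe was detected in 3.40%, 2.77% and 1.78% of the former and in 82.6%, 73.1% and 69.2% of the latter. The part of this split in the shares was not tested.

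**Figure D4:**
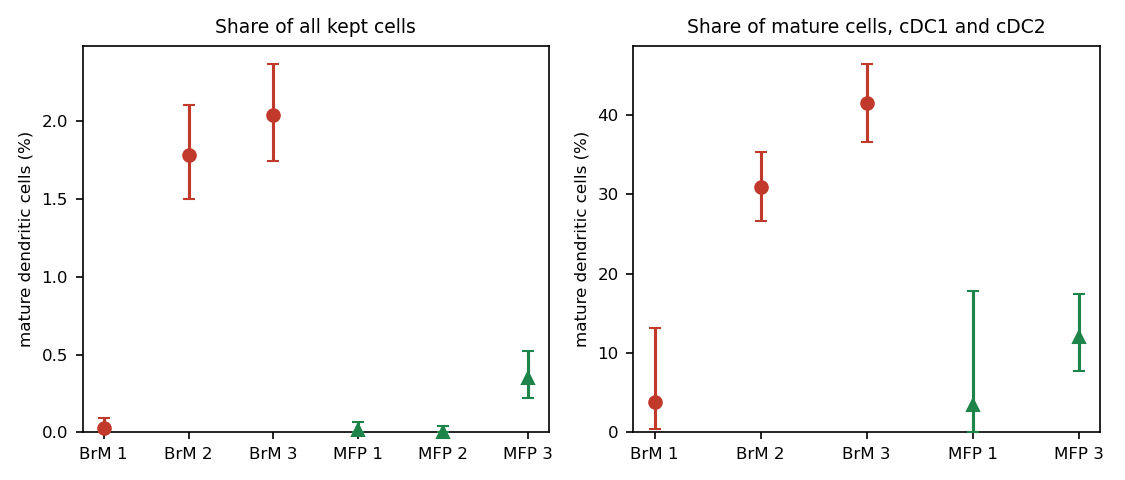
Mature dendritic cells in percent of all kept cells (left) and of mature cells, cDC1 and cDC2 together (right), 1 point per library with exact 95% binomial intervals; circles are BrM and triangles MFP, and MFP 2 is left out on the right. BrM 2 and BrM 3 are the high libraries, and BrM 1 lies near MFP 1 and below MFP 3 in both panels.

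For gene levels between sites, MFP 3 was the 1 MFP library with at least 20 members, so site and library cannot be told apart and no test was made. Among 2618 genes at a mean of 50 CPM or more, both BrM libraries were at least 2 times above MFP 3 in 70 genes (2.67%) and at least 2 times below it in 42 genes (1.60%). For these folds the lower library was given at least 3 counts. Of 18 migration genes at that level and of 11 regulatory genes, none was past the fold in either direction. Of 4 cytokine genes 2 were higher in BrM, Il12b among them, and of 11 lipid genes 3 were, with 0 lower in either list. Of 9 genes of type 2 and epithelial cytokine sensing 2 were lower and 0 higher. Of 10 chemokine genes 4 were higher in BrM (Ccl2, Ccl3, Ccl5 and Ccl17), and of 11 costimulatory genes 2 were lower: Tnfsf9 (57.4, 81.1 and 219 CPM) and Tnfrsf9 (51.2, 64.8 and 147 CPM). In members of at most 2 C1q UMIs (102, 142 and 16 cells), Ccl5, Ccl17 and Tnfsf9 were still past the fold, whereas Ccl2, Ccl3 (11.7, 47.3 and 10.4 CPM) and Tnfrsf9 (62.6, 74.5 and 125 CPM) were not.

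The 8 genes furthest above MFP 3 were mostly known from macrophages: the monocyte chemokines Ccl2 (253, 90.0 and 10.8 CPM) and Ccl12 (279, 81.1 and 0 CPM), Ccl3, the complement gene C1qb (1128, 627 and 126 CPM), Lyz2, Spp1 and the protease gene Ctsl, beside the interferon-induced Oasl1 (92.1, 83.2 and 21.6 CPM). The macrophage marker sums of members, which hold C1qb itself, were 6245, 3696 and 1132 CPM, and the part of macrophage RNA was not tested. In the C1q-limited members, where C1qb is read by the filter and not compared, Oasl1 was the 1 other gene of these 8 still past the fold and level rules, at 110.3, 84.1 and 5.21 CPM, its MFP 3 value being 1 UMI in 16 cells. Ctsl, at 32.9, 28.04 and 5.21 CPM and also 1 UMI in MFP 3, and Ccl12, at 6.36, 18.4 and 0 CPM, were below 50 CPM on average and under the fold once MFP 3 was given 3 counts. Ccl2 stood at 6.36, 7.89 and 5.21 CPM. In the same cells Ccl5 was still higher in BrM, 6528, 6779 and 3027 CPM. Il12b was past the fold in all members (1361, 974 and 459.9 CPM). In the C1q-limited ones, at 1513, 1051 and 609.6 CPM, it was above MFP 3 by less than the fold.

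The 8 genes furthest below MFP 3 were Rasgef1b, S100a8, Adcy6, Sdc4, Hilpda, S100a10, Nfkbid and Nrp2. Adcy6 had 48.5, 48.4 and 169 CPM, the syndecan Sdc4 48.5, 67.5 and 226 CPM and the semaphorin co-receptor Nrp2 28.4, 34.1 and 108 CPM. In cDC1 of the same libraries Sdc4 had 72.5, 77.2 and 178 CPM and Nrp2 2.91, 5.94 and 12.6 CPM, also with MFP 3 the highest. S100a8, a neutrophil marker, had 36.0, 2.73 and 144 CPM. The neutrophil marker sums of members, which hold S100a8 itself, were 81.7, 17.7 and 298 CPM, and the part of neutrophil RNA was not tested. With C1q-limited members, Adcy6, Sdc4, Nrp2, S100a8, S100a10 and Nfkbid were still past the fold, and Rasgef1b (14.8, 28.9 and 46.9 CPM) and Hilpda (29.7, 20.2 and 52.1 CPM) were not.

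**Figure D5:**
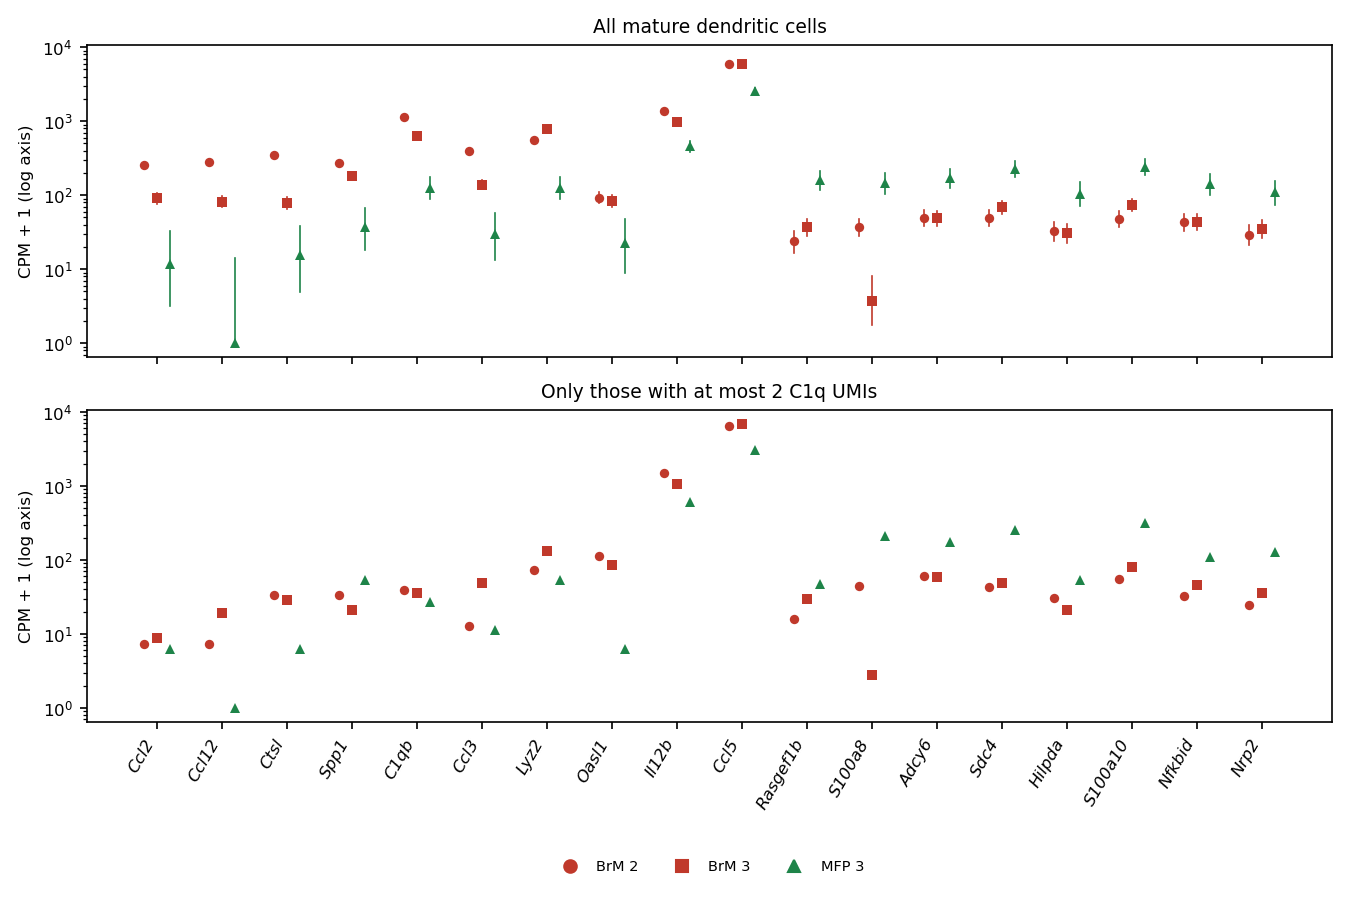
CPM + 1 on a log axis of 18 genes in mature dendritic cells of BrM 2 (circle), BrM 3 (square) and MFP 3 (triangle), in all members with exact 95% Poisson intervals (top) and in those with at most 2 C1q UMIs (bottom). Ccl2 and Spp1 lose their distance between sites in the lower panel, whose filter reads C1qb itself, while Oasl1, Ccl5, Adcy6, Sdc4 and Nrp2 keep it.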

How the data were processed

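Immune cells of 6 tumour samples were profiled by 10x Genomics 3′ single-cell RNA sequencing. The authors deposited 1 matrix per sample of unnormalised UMI counts, made with Cell Ranger 4.0 on mm10 per the submitters' processing notes; filters beyond cell calling were not given in the sources used here. Of 49518 barcodes, 2627 failed the quality limits. The members, gene lists and tests were chosen with earlier results of these data known.

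Counts were summed per library and class where a library held at least 20 cells of each class. The 9 sums were fitted in edgeR 4.0.16 (R 4.3.3; TMM, filterByExpr, quasi-likelihood test) with the library as a block, because the classes of a library share tumour and sort, which left 4 residual degrees of freedom. Same-library sums did not all deviate together, with correlations from -0.00622 to 0.32, so the block rests on the design. In simulated counts for 8546 genes, 74% of changes of 1 log2 unit were recovered against cDC1 and 65% against cDC2. The simulation gave all genes the same fixed spread and all classes the same mean profile, with no library effect. Its changed genes were drawn above a level limit, so these shares do not give the recovery in the real counts.

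Named genes are those of 19 lists plus the 12 furthest above and below both classes, and for sites the 8 furthest each way. Doublets were scored with Scrublet in scanpy 1.11.5 and kept; the 7% with the highest scores, which include 14, 21 and 1 members, were left out as an alternative. A planned split of members by Ccl17 was not made, since 26.1% of the 23 members of MFP 3 held it. Levels are CPM of summed counts; 3′ counts are not corrected for gene length, so levels compare a gene between classes and not genes with each other. Sequences came from RefSeq.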

Additional observations from a re-analysis of the deposited data

How the results depend on the processing

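Of 222 values of named genes against a class, 211 were called, and of their 3158 values under the alternatives 3115 kept direction and side, 41 lost the call (15 without BrM 3 and 8 without BrM 2) and 2, both of Il1b, turned sign. The alternative of at least 10 cells of a class drew the same libraries as the main fit, so its values could not differ. It is among the 15 alternatives counted for Ccl17, Cxcl16, S100a4, Gpr132 and Cd47, and its values are among the 3115. Counts of called genes moved by over 1.5 times without BrM 3. Without BrM 2 this held against cDC2 and for genes lower than in cDC1, and without MFP 3 for none of the counts. Leaving out each library in turn, genes higher than in cDC1 ranged from 864 to 1713, lower ones from 587 to 1552, and both together from 1451 to 3265; against cDC2 the ranges were 731 to 1420, 539 to 1221, and 1270 to 2641. With cells thinned to 3000 UMIs and 4537 genes tested, 1017 genes were higher and 933 lower than in cDC1 (1950 in all), and 801 and 734 than in cDC2 (1535 in all). With no replicate block 2832 genes were called against cDC1, and a replicate block changed no call on the shares (exact permutation p = 0.25, the smallest it allows).

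Signs turned as follows. With a library left out, Cd86 ranged from -0.23 to 0.18 against cDC1 and from -0.37 to 0.34 against cDC2. It gave 0.014, 0.12 and 0.035 against cDC1 without members holding UMIs of other types, with C1q-limited cDC1 and with all classes limited. Against cDC2 it gave 0.012 without the highest doublet scores, 0.056 without UMIs of other types and 0.0031 by DESeq2 1.42.0. Il1b against cDC1 gave 0.62 and 0.24, and Irf8 -0.13 and -0.032, with cDC1 and with all classes C1q-limited, an alternative chosen after seeing the data. Ccl17 against cDC2 gave -0.81 without BrM 3, -0.36 without MFP 3, -0.12 with 2 classes in the fit, -0.26 without UMIs of other types, -0.21 thinned and -0.20 with C1q-limited cDC1. The smallest ratio of Spp1 between BrM and MFP fell to 0.387 in C1q-limited members. The causes were not tested.

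Between sites, a 3-fold limit left 21 genes higher and 8 lower in BrM, and a 20 CPM minimum gave 199 and 154 of 4858 genes. Without BrM 2 or BrM 3, 84 and 117 genes were lower and 74 and 94 higher. Leaving out a BrM library loosens the rule, since only the other BrM library then has to be past the fold. The thinned share of members with Irf8 moved from 73.5% to 64.7% in BrM 2 and from 75.6% to 65.5% in BrM 3 at 2000 UMIs, fewer UMIs by construction; NK cells had 70.9% and 69.0% at 3000 UMIs, so it is not read as a difference. With 23 members, MFP 3 limits every site value.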

Other observations

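Lipid genes as a group were called against cDC1 at about the share of all genes. Fabp5, a chaperone of fatty acids, had 1472, 2671 and 3690.3 CPM in mature dendritic cells, 46.3, 54.6 and 45.0 CPM in cDC1 and 168, 196 and 109 CPM in cDC2, with log2 fold changes of 5.79 ± 0.32 and 4.10 ± 0.30 (edgeR adjusted p = 3.64e-07 and 2.96e-06), and its level was lowest in BrM 2 and highest in MFP 3. Of 22 tested genes of cholesterol and lipid handling, 4 were higher and 4 lower than in cDC1, and 7 higher and 1 lower than in cDC2, where of all genes tested 18.7% and 16.6% were higher and 19.8% and 15.8% lower. With C1q-limited cDC1, 7 were higher and 2 lower than in cDC1. Without BrM 3, 2 were lower than in cDC1 and 4 higher than in cDC2. The cholesterol synthesis gene Idi1 (2.18 and 1.58) and the lysosomal cholesterol carrier Npc2 (0.78 and 1.80) rose in both comparisons.

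Of 24 tested interferon genes, 5 (20.8%) were higher and 6 (25%) lower than in cDC1, near the shares of all genes, and 5 (20.8%) were higher and 9 (37.5%) lower than in cDC2. With C1q-limited cDC1, 7 were higher and 3 lower than in cDC1. The guanylate-binding protein gene Gbp5 (1.50 and 1.51) was higher in both comparisons, and the GTPase gene Iigp1 lower (-2.02 and -1.38), though not called against cDC2 with no replicate block (log2 -1.02, edgeR adjusted p = 0.257). Of the 24 genes 2 were lower than in cDC1 without BrM 2 or BrM 3, and against cDC2 2 were lower without BrM 2 and 3 higher without BrM 3. Of 20 genes that tissue digestion is known to induce, 2 (10%) were higher and 2 (10%) lower than in cDC1, below the 18.7% and 19.8% of all genes. Against cDC2, 8 (40%) were lower, beside 15.8% of all genes, and none was higher. Fos gave -0.85 and -0.85. Of the 20, 4 were lower than C1q-limited cDC1 and 6 with all classes limited. Without BrM 3, 1 was lower than in cDC1 and 3 lower than in cDC2.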
